A study of Rattus norvegicus with 21 samples.

Results

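Kupffer cell and macrophage genes were followed in the liver of male rats given 2-ethylhexyl diphenyl phosphate, an organophosphate plasticiser and flame retardant. The set holds 10 named genes: the scavenger receptors Cd163 and Marco, the lectin Clec4f, the lysosomal protein Cd68, the endotoxin receptor Cd14, the growth factor receptor Csf1r, the complement receptor Vsig4, and the C1q chains C1qa, C1qb and C1qc. A gene was taken where a probe set was annotated with its symbol alone, and where a gene had several, the one with the highest mean over all arrays was kept. Of the 10 genes, 8 had a probe set, each exactly 1, among 14218 genes measured. Marco and Vsig4 had none and are not described.

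The livers came from Harlan Sprague-Dawley rats dosed by oral gavage in corn oil once a day, with 4 daily doses and sacrifice on day 5. The labels give the chemical as EDHP and the series text as EHDP, which is used here. Vehicle rats received corn oil alone and gave 6 arrays, although the protocol speaks of 5 such rats. The treated groups received 61.2, 122.5, 244.6, 489.2 or 978.5 mg/kg body weight, each with 3 arrays, and age is not given in the labels. Each array measured total RNA of the left liver lobe, so in this bulk tissue fewer cells of a type and less RNA per cell cannot be told apart. Values are log2 signals, in which a difference of 1 is a doubling, and p-values measure the spread between these arrays.

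Kupffer cells are the resident macrophages of the liver, held in the sinusoids, where they take up particles, dying red cells and bacterial products from portal blood. Their survival depends on the receptor Csf1r and its ligands, their identity on transcription factors that include PU.1 (Spi1), and their surface carries Clec4f, a lectin found in rodents almost only on these cells. Cd163 takes up the haemoglobin-haptoglobin complex, Cd14 hands bacterial lipopolysaccharide to Tlr4, and C1q opens the classical pathway of complement.

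The arrays were alike in distribution, with medians of 6.33 to 6.41 and mean correlations with the other arrays of 0.987 to 0.994. Albumin (Alb), the defining hepatocyte gene, had the highest mean of all genes, at 15.30 to 15.36. All 8 macrophage genes lay above the array median on all 21 arrays. At 489.2 mg/kg replicate 1 stood far below replicates 2 and 3 for 7 of the 8 genes, and values with and without it are given below. Replicate 1 also had the lowest value of its group for all 8 genes at 244.6 and 978.5 mg/kg, for 7 at 61.2 mg/kg, for 0 at 122.5 mg/kg and for 1 in the vehicle group. The labels do not say what a replicate number marks. The 3' minus 5' signal of the Gapdh control probe sets, a measure of RNA integrity, ran from 1.05 to 2.06 in vehicle arrays (median 1.36), from 1.05 to 1.48 at 61.2 mg/kg, from 0.85 to 1.29 at 122.5 mg/kg, from 0.88 to 1.02 at 244.6 mg/kg, from 1.16 to 1.30 at 489.2 mg/kg and from 0.90 to 1.02 at 978.5 mg/kg. The same measure for actin had medians of 2.44 in vehicle arrays, 2.44, 2.16, 2.28 and 2.39 at the 4 lower doses in order and 2.06 at 978.5 mg/kg. The part of RNA integrity in the results was not tested.

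Promoter sequences are shown for 3 genes: Cd163, which fell at the highest dose, and C1qa and C1qb, which lie side by side with C1qc on chromosome 5, with 0 other genes between the 3, and moved together over the arrays. Each runs 5' to 3' on the gene's strand in GRCr8, from 250 bases before to 50 bases after the start site used in the RefSeq promoter table. That site is the outer end of the gene for C1qa and C1qb and lies 23 bases inside it for Cd163. Capitals mark GAGGAA, or its reverse complement TTCCTC, a purine-rich core of the kind that PU.1 and other ETS factors bind. The windows are chr4:158770524-158770823 on the plus strand (Cd163), chr5:154419884-154420183 on the minus strand (C1qa) and chr5:154407778-154408077 on the minus strand (C1qb).
Cd163: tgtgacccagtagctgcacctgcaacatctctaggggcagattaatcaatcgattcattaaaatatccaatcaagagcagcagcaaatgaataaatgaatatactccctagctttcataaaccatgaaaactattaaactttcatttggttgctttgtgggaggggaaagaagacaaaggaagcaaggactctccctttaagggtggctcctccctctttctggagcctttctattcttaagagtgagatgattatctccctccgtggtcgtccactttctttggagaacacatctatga
C1qa: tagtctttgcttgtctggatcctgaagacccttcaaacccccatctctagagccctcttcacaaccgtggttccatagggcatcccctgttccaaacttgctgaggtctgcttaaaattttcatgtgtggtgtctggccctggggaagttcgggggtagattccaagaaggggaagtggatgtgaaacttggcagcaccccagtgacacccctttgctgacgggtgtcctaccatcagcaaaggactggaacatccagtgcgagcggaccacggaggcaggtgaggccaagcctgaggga
C1qb: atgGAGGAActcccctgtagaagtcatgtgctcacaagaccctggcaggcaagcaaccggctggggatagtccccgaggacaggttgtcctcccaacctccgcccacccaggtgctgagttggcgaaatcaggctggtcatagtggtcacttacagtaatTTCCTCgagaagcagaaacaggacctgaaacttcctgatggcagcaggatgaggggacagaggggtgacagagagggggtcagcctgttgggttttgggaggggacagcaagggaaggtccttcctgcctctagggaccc
Of the 10 genes, 9 had an entry in this promoter table, and C1qc did not. GAGGAA on either strand occurred in 5 of the 9 (Marco, Cd68, Cd14, Csf1r and C1qb), against 27.5% of all 27457 promoters of the same length. In C1qb its first bases lay at -247 from the start on the plus and at -90 on the minus strand of the gene. For Marco, Cd14 and Csf1r the start site of the table lies 9085, 251 and 227 bases inside the gene as the RefSeq gene table bounds it, so their windows may not hold the outermost promoter, and they are not shown. The longer core GAGGAAGT, which contains the shorter one, occurred in 0 of 9 and in 2.4% of all promoters. These matches describe the letters of the window only.

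At 978.5 mg/kg, 7 of the 8 macrophage genes had lower means than in vehicle livers and Cd14 had a higher one. Cd163, the haemoglobin scavenger receptor, fell 1.71-fold, by 0.77 ± 0.21 on the log2 scale (SE, limma adjusted p = 0.0209). Cd14, the lipopolysaccharide receptor, rose 1.74-fold, by 0.80 ± 0.17 (limma adjusted p = 0.00553). The other 6 did not pass the threshold of 0.05, with differences from -0.75 for Clec4f to -0.47 for C1qb. So 2 of 8 were called, against 10.2% of all genes, with 1 higher (6.18% of all genes) and 1 lower (4.07%). At an unadjusted p under 0.05 the count was 7 of 8, against 24.7% of all genes, with 1 higher (12.4% of all genes) and 6 lower (12.3%). The median of the 8 differences was -0.60, against -0.02 over all genes, and 7 of 8 lay below 0, against 55.3% of all genes.

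**Figure D1:**
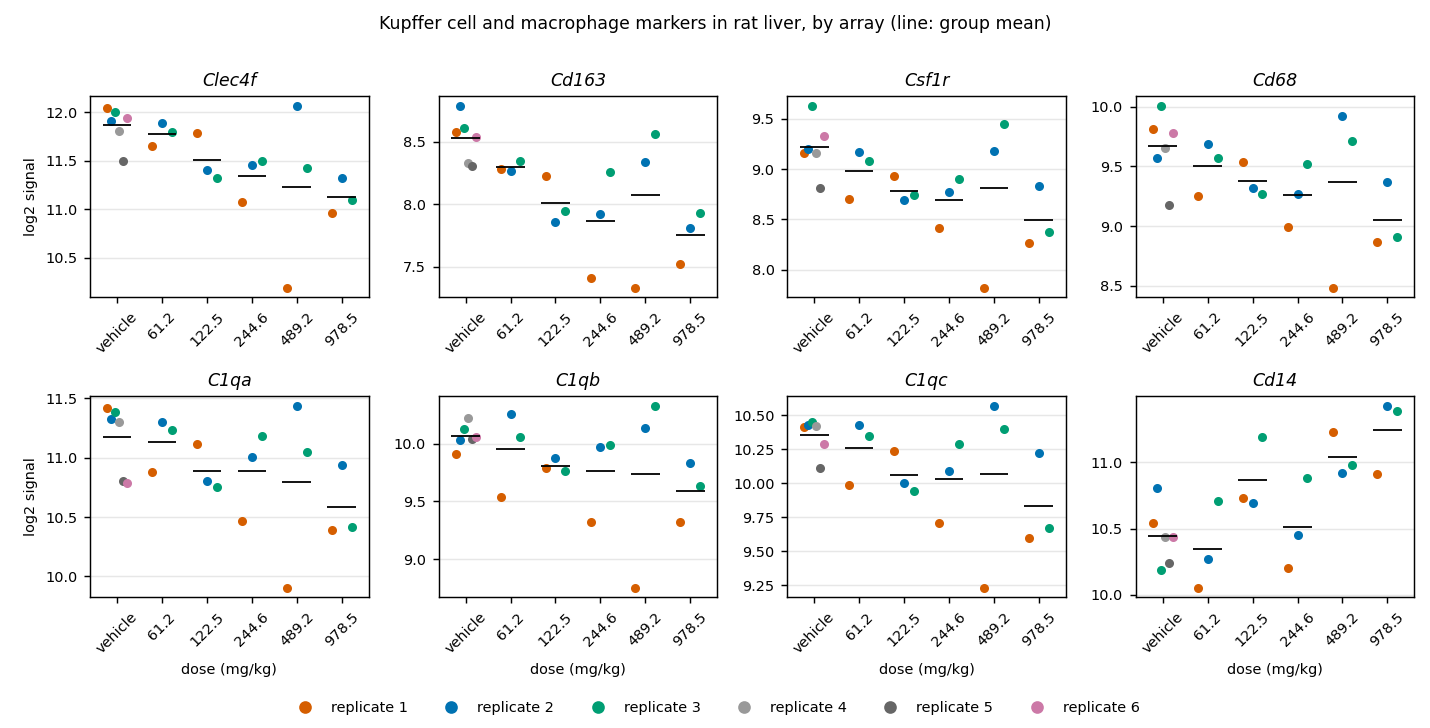
Log2 signal of the 8 measured genes on each of the 21 arrays, by dose in mg/kg, with points coloured by replicate number and lines for group means. Cd14 ends above the vehicle range at 489.2 and 978.5 mg/kg, and replicate 1 at 489.2 mg/kg lies far below replicates 2 and 3 for the other 7 genes.

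Clec4f, the Kupffer cell lectin, had vehicle values of 11.50 at the lowest, 11.93 at the median and 12.04 at the highest. Signals were 11.65, 11.89 and 11.80 at 61.2 mg/kg and 11.79, 11.41 and 11.32 at 122.5 mg/kg. The arrays at 244.6 mg/kg read 11.08, 11.46 and 11.50, those at 489.2 mg/kg 10.19, 12.07 and 11.43 and those at 978.5 mg/kg 10.96, 11.32 and 11.10. Every array at 978.5 mg/kg therefore lay below every vehicle array, as did every array at 244.6 mg/kg, by a margin smaller than 2 decimals show. The 3 arrays at 489.2 mg/kg ran from the lowest value of all 21 to the highest. The difference at 978.5 mg/kg was -0.75 ± 0.25 (limma adjusted p = 0.0629, 95% interval -1.27 to -0.22).

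Cd163 ran in vehicle livers from 8.31 through a median of 8.56 to 8.79. The 61.2 mg/kg arrays gave 8.28, 8.27 and 8.35 and the 122.5 mg/kg arrays 8.23, 7.86 and 7.95. The next doses gave 7.41, 7.92 and 8.26 (244.6 mg/kg), 7.33, 8.34 and 8.56 (489.2 mg/kg) and 7.52, 7.81 and 7.93 (978.5 mg/kg). The arrays at 122.5, 244.6 and 978.5 mg/kg all lay below the lowest vehicle array, while at 489.2 mg/kg replicates 2 and 3 lay within the vehicle range. The difference from vehicle was -0.51 ± 0.21 at 122.5 mg/kg (limma adjusted p = 0.703), -0.66 ± 0.21 at 244.6 mg/kg (0.0989) and -0.45 ± 0.21 at 489.2 mg/kg (0.314), none of which passed. The call at 978.5 mg/kg was lost without replicate 1 of that group (-0.66, limma adjusted p = 0.113).

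Csf1r, the receptor for the macrophage growth factors Csf1 and Il34, had a lowest, median and highest vehicle value of 8.81, 9.18 and 9.63. Its signals in livers given 61.2 mg/kg were 8.70, 9.17 and 9.08, and in those given 122.5 mg/kg 8.93, 8.69 and 8.74. Livers given 244.6 mg/kg had 8.42, 8.77 and 8.90, those given 489.2 mg/kg 7.82, 9.18 and 9.45 and those given 978.5 mg/kg 8.27, 8.83 and 8.38. Replicate 2 at the highest dose lay just inside the vehicle range and the other arrays of that dose below it. The difference at 978.5 mg/kg was -0.72 ± 0.25 (limma adjusted p = 0.0711).

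Cd68, a glycoprotein of macrophage lysosomes, read 9.18, 9.71 and 10.01 at the lowest, median and highest in vehicle livers, 8.48, 9.92 and 9.71 at 489.2 mg/kg, and 8.87, 9.37 and 8.91 at 978.5 mg/kg. The highest dose overlapped the vehicle range through its replicate 2. Its difference there was -0.62 ± 0.23 (limma adjusted p = 0.1).

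The C1q chains, which together build the recognition part of the first complement component, had lower means at 978.5 mg/kg and none passed. C1qa read 10.79, 11.31 and 11.42 at the lowest, median and highest in vehicle livers and 10.39, 10.94 and 10.42 at 978.5 mg/kg, a difference of -0.59 ± 0.25 (limma adjusted p = 0.147). C1qb read 9.91, 10.05 and 10.22 against 9.32, 9.83 and 9.63, a difference of -0.47 ± 0.24 (limma adjusted p = 0.246). C1qc read 10.11, 10.41 and 10.45 against 9.60, 10.22 and 9.67, a difference of -0.52 ± 0.21 (limma adjusted p = 0.133). Of the 3, only C1qb had every array of the highest dose below every vehicle array, and it had the narrowest vehicle spread (SD 0.10, n = 6). Replicate 1 at 489.2 mg/kg gave 9.90 for C1qa, 8.75 for C1qb and 9.23 for C1qc, and replicates 2 and 3 gave 11.05 to 11.44, 10.14 to 10.33 and 10.40 to 10.57.

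Cd14, known to be made by macrophages and also by hepatocytes, was the only one of the 8 with a higher mean at the highest dose. Vehicle livers read 10.19 at the lowest, 10.44 at the median and 10.81 at the highest. The lowest dose, 61.2 mg/kg, gave 10.05, 10.27 and 10.71, and 122.5 mg/kg gave 10.73, 10.69 and 11.19. From there the arrays read 10.20, 10.45 and 10.88 (244.6 mg/kg), 11.23, 10.92 and 10.98 (489.2 mg/kg) and 10.91, 11.43 and 11.39 (978.5 mg/kg). All 6 arrays of the 2 highest doses lay above every vehicle array, and the lower doses overlapped the vehicle range without a steady order. Replicate 1 at 489.2 mg/kg, the lowest of its group for the other 7 genes, was the highest of its group for Cd14. The difference was 0.43 ± 0.17 at 122.5 mg/kg (limma adjusted p = 0.713), 0.07 ± 0.17 at 244.6 mg/kg (0.926) and 0.60 ± 0.17 at 489.2 mg/kg (0.0681), and only that at 978.5 mg/kg passed.

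In all, 3 of 8 genes (Cd163, Clec4f and C1qb) had every array at 978.5 mg/kg below every vehicle array, against 6.79% of all genes, and 1 (Cd14) had every array above, against 6.74%. The 489.2 mg/kg group had 0 below (2.88% of all genes) and 1 above (Cd14, 3.54%), and the 244.6 mg/kg group 2 below (Cd163 and Clec4f, 3.07%) and 0 above (5.51%). The 122.5 mg/kg group had 2 below (Cd163 and C1qb, 1.24%) and 0 above (1.81%), and the 61.2 mg/kg group 0 below (0.893%) and 0 above (1.48%).

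No macrophage gene passed the test below 978.5 mg/kg. The limma test called 0 of 8 in each of these 4 comparisons, against 0.0141% of all genes for 61.2 mg/kg, 0.113% for 122.5 mg/kg, 2.95% for 244.6 mg/kg and 2.9% for 489.2 mg/kg. With an unadjusted p under 0.05 the counts were 0 (5.48% of all genes), 2 (6.06%), 3 (14%) and 3 (14.5%), in the same order. All 8 differences at 61.2 mg/kg lay below 0, between -0.23 and -0.03, as did 49.6% of all genes. The median difference was -0.10, -0.29, -0.36 and -0.35 over these 4 doses, with all-gene medians of 0.00, -0.00, -0.01 and 0.01. The doses share their vehicle arrays, so these values are not independent of each other.

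**Figure D2:**
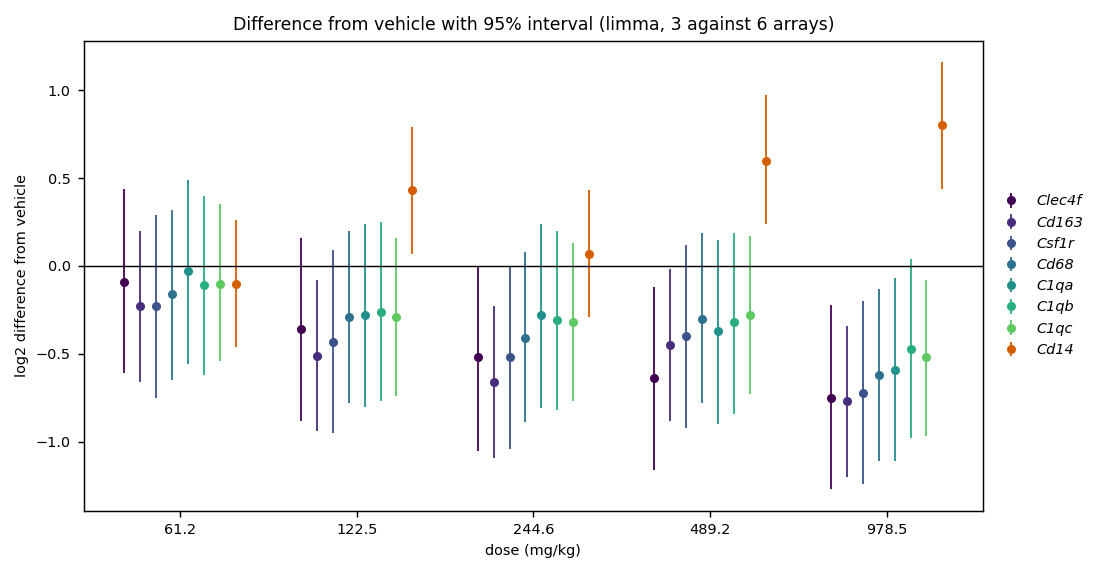
Difference from vehicle in log2 signal for each of the 8 genes by dose in mg/kg, with bars for the 95% interval of the limma fit. Cd14 (orange) lies at 0.60 and 0.80 at the 2 highest doses, and the other 7 genes lie between -0.77 and -0.47 at 978.5 mg/kg.

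Replicate 1 at 489.2 mg/kg bore on the tests at other doses, since all 21 arrays share 1 estimate of the spread. The SD among the 3 arrays at 489.2 mg/kg was 0.66 for Cd163, 0.95 for Clec4f, 0.78 for Cd68, 0.87 for Csf1r, 0.80 for C1qa, 0.86 for C1qb and 0.73 for C1qc, but 0.16 for Cd14. At 978.5 mg/kg the same genes had SDs of 0.18 to 0.34. Without that array 7 of the 8 genes passed at 978.5 mg/kg: Cd163 (limma adjusted p = 0.00237), Clec4f (0.00294), Csf1r (0.00623), Cd68 (0.0167), C1qc (0.023) and C1qa (0.043) fell, Cd14 rose (0.00594), and C1qb had an adjusted p of 0.0549. With only the vehicle and 978.5 mg/kg arrays in the fit, 7 of 8 passed as well, C1qb (limma adjusted p = 0.0265) among them and C1qa (0.0705) not. At 489.2 mg/kg itself, leaving the array out turned the differences of Cd68 (-0.30 to 0.15), Csf1r (-0.40 to 0.10), C1qa (-0.37 to 0.07), C1qb (-0.32 to 0.17) and C1qc (-0.28 to 0.14), and moved Clec4f from -0.64 to -0.12 and Cd163 from -0.45 to -0.07. Cd14 was 0.60 with and 0.51 without it. With the 6 arrays numbered 1 left out, a setting chosen after the data were seen, 4 of 8 passed at 978.5 mg/kg: Cd163 (-0.65, limma adjusted p = 0.0168), Clec4f (-0.63, 0.0413), C1qb (-0.37, 0.0422) and Cd14 (0.99, 0.0093). Over all 14218 genes, the count called at 978.5 mg/kg was 1457 with all arrays and 702 to 1594 on leaving out each array in turn. Over the other settings with an adjusted threshold, the fits with fewer arrays among them, it ran from 361 to 1764. The 1764 counts probe sets, and the all-gene count of each single fit is not given here.

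Over the dose order, from vehicle as 0 to 978.5 mg/kg as 5, 3 of the 8 genes fell and 1 rose. Clec4f fell by 0.79 ± 0.20 over the 5 steps (SE, limma adjusted p = 0.00982), Cd163 by 0.71 ± 0.17 (0.00873) and Csf1r by 0.64 ± 0.20 (0.0414), while Cd14 rose by 0.77 ± 0.17 (0.00363). That is 4 of 8, against 11.2% of all genes (5.12% lower and 6.06% higher), and at an unadjusted p under 0.05 all 8, against 24.5%. The other 4 had fitted changes of -0.56 ± 0.20 for C1qa (limma adjusted p = 0.0724), -0.53 ± 0.19 for Cd68 (0.0685), -0.47 ± 0.17 for C1qc (0.0805) and -0.45 ± 0.19 for C1qb (0.146). The trend includes the step from vehicle to the treated livers. Among the 15 treated arrays alone, Cd14 passed (limma adjusted p = 0.0474) and Clec4f (0.228), Cd163 (0.413) and Csf1r (0.528) did not. With the arrays numbered 1 left out, again only Cd14 passed, with adjusted p-values of 0.109 for Clec4f, 0.146 for Cd163 and 0.303 for Csf1r. The Csf1r trend was also lost on leaving out any 1 of 11 of the 21 arrays (limma adjusted p 0.0502 to 0.115): vehicle replicates 1, 2, 3, 4 and 6, replicate 2 at 61.2 mg/kg, replicates 1 and 2 at 244.6 mg/kg, replicate 1 at 489.2 mg/kg, and replicates 1 and 3 at 978.5 mg/kg. Without replicate 2 at 489.2 mg/kg, 7 of 8 passed, Cd68 (0.016), C1qa (0.0203) and C1qc (0.0224) in addition. Over all genes the trend called 1589 with all arrays and 1088 to 1730 on leaving out each array in turn.

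With the 5 dose groups averaged against vehicle, Cd163 was the 1 gene of 8 that passed, at -0.52 ± 0.14 (limma adjusted p = 0.0377), against 4.42% of all genes, and at an unadjusted p under 0.05 the count was 5, against 17.8%. The next were Cd14 at 0.36 ± 0.12 (limma adjusted p = 0.0968), Clec4f at -0.47 ± 0.17 (0.136) and Csf1r at -0.46 ± 0.17 (0.145). The Cd163 call was lost on leaving out any 1 of 10 arrays (limma adjusted p 0.0523 to 0.106): vehicle replicates 1, 2, 3 and 6, replicates 1 and 2 at 61.2 mg/kg, replicates 2 and 3 at 122.5 mg/kg, replicate 1 at 244.6 mg/kg and replicate 1 at 978.5 mg/kg. It was also lost with the replicate number as a block (-0.66, limma adjusted p = 0.0546), with low values floored at the 20th percentile (-0.52, 0.0759) and with a 1.5-fold minimum. Set against the 4 lower doses together, the highest dose had a Cd14 signal higher by 0.55 ± 0.16 (limma adjusted p = 0.083), and the other 7 genes lay between -0.35 and -0.22. The limma test called 0 of 8 in that comparison, against 1.81% of all genes, and 1 at an unadjusted p under 0.05 (Cd14), against 16% of all genes. Without replicate 3 at 61.2 mg/kg Cd14 passed it (limma adjusted p = 0.0424).

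The 7 genes other than Cd14 moved together from liver to liver. Over the 21 arrays their 21 pairs had Pearson's r from 0.80 to 0.96 (median 0.89) and Spearman's rho from 0.69 to 0.94, with permutation p for r adjusted over all 28 pairs from 1.75e-05 to 6.67e-05, where 1e-05 before adjustment is the smallest p the permutations can give. Adjusted permutation p for rho ran from 2.33e-05 to 0.000867. For all 28 pairs the permutations shuffled arrays across dose groups, so their p-values also take in any change with dose. No p-value was computed within groups. Without the 2 arrays farthest from the median the values of r ran from 0.66 to 0.94. With each group's mean taken out, so that dose no longer entered, r ran from 0.79 to 0.96, and without replicate 1 at 489.2 mg/kg as well from 0.36 to 0.91 (median 0.65). Part of the common movement thus rested on that array. The closest pairs over all arrays were Cd68 with Csf1r, Cd68 with C1qc and C1qa with C1qc, each at r = 0.96 (adjusted permutation p = 1.75e-05, rho 0.94, 0.93 and 0.93).

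Cd14 did not share this movement across all arrays. Its 7 pairs had r from -0.47 to -0.25 and rho from -0.44 to -0.20, and 1 of them, with Clec4f, passed (r = -0.47, adjusted permutation p = 0.0387, rho -0.44, adjusted permutation p = 0.0599). With group means taken out the 7 values of r ran from -0.03 (Clec4f) to 0.25, and without replicate 1 at 489.2 mg/kg from 0.27 to 0.62, all above 0. The difference between these values was not tested.

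**Figure D3:**
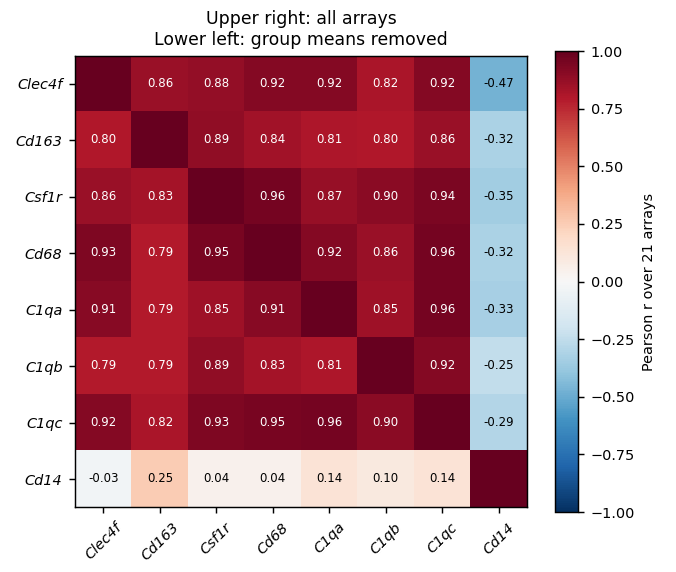
Pearson correlation between each pair of the 8 genes over 21 arrays, with all values in the upper right and group means removed in the lower left. The 21 pairs without Cd14 run from 0.80 to 0.96 over all values, and the 7 pairs with Cd14 from -0.47 to -0.25.

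The mean of the 8 genes per array, each set to its vehicle mean, showed the same spread. It was -0.29 at the lowest, 0.04 at the median and 0.14 at the highest in vehicle livers, and -0.68, -0.20 and -0.48 at 978.5 mg/kg. The 3 arrays at 489.2 mg/kg had -1.05, 0.16 and 0.08. Over the 21 arrays the genes most like this mean were Anxa3, Axl and Fcer1g (each r = 0.95), Fcgr1a (0.94), Tyrobp and Ccl6 (0.93), and Abcg1, Ly86, Cd5l and Fyb1 (0.92), as a description with no test. The 3 probe sets of Abcg1 differed in sign at 978.5 mg/kg, from -0.30 to 0.01. Fcer1g and Tyrobp are adaptor chains of myeloid Fc and lectin receptors, Fcgr1a is a high-affinity IgG receptor, and Axl is a receptor for the uptake of dying cells. With group means taken out Axl (0.96), Anxa3 (0.95), Ly86, Fcer1g and Tyrobp (each 0.94) led the list.

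Other macrophage genes, a list of 20 measured genes, had a median difference of -0.34 at 978.5 mg/kg, with 19 below 0, 4 lower and 0 higher by the limma test. Over all genes the limma test called 4.07% lower and 6.18% higher at this dose. Cybb, a subunit of the phagocyte oxidase, fell by 0.69 ± 0.21 (limma adjusted p = 0.0445), Folr2, a folate receptor of resident macrophages, by 0.48 ± 0.12 (0.017), Itgax, the integrin CD11c, by 0.48 ± 0.14 (0.0383), and Laptm5, a lysosomal protein of blood cells, by 0.32 ± 0.10 (0.0383). Cybb had a second probe set with a difference of -0.09. For Itgax, vehicle replicate 6 stood apart at 7.04, with the next vehicle array at 6.34. All 3 Itgax values at 978.5 mg/kg lay below the vehicle range. Adgre1, a surface receptor that marks macrophages, differed by -0.68 ± 0.34 (limma adjusted p = 0.219) and Cd5l, a protein secreted by Kupffer cells, by -0.62 ± 0.27 (0.16), and neither passed. Adgre1 ran from 6.73 to 9.22 at 489.2 mg/kg, wider than its range in all vehicle livers of 7.70 to 8.37.

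Genes of all white blood cells had 10 measured members, all 10 below 0 at 978.5 mg/kg, with a median of -0.49 and 2 lower by the test (4.07% of all genes). These were Laptm5 and Cd52, a surface glycoprotein of white blood cells (-0.49 ± 0.15, limma adjusted p = 0.0409), whose signals of 4.26 to 5.42 lay above the 20th percentile of all probe sets on 4 of 21 arrays. Cd53, a tetraspanin, differed by -0.73 ± 0.28 (0.101) and fell over the dose order (limma adjusted p = 0.0407). Ptprc, the common antigen CD45, differed by -0.46 ± 0.26 (limma adjusted p = 0.297).

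Of the 14 genes for Csf1r ligands and macrophage transcription factors, 2 fell at 978.5 mg/kg (4.07% of all genes) and 0 rose (median -0.28). Il34, a ligand of Csf1r, fell by 0.42 ± 0.10 (limma adjusted p = 0.012), while Csf1, the other ligand, differed by -0.01 ± 0.12 (0.981). Csf2ra, a chain of the GM-CSF receptor, fell by 0.36 ± 0.10 (limma adjusted p = 0.0261). Zeb2, a transcription factor of the macrophage lineage, fell over the dose order (limma adjusted p = 0.0195), with probe sets that differed in sign at the highest dose. Spi1 had no probe set.

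The proteases that act with C1q did not pass. C1r differed by -0.11 (limma adjusted p = 0.631) and C1s by -0.05 (0.811), both made largely by hepatocytes. Of the 8 complement genes measured 1 fell (4.07% of all genes) and 0 rose. The 1 was Itgax, which is also among the macrophage genes above.

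Genes that act with Cd14 moved in both directions. Of 12 measured, 1 rose (6.18% of all genes) and 2 fell (4.07%) at 978.5 mg/kg, with a median of -0.10. Nfkbia, the inhibitor of NF-kB, rose by 0.43 ± 0.13 (limma adjusted p = 0.0342), while the adaptors Myd88 and Tirap fell by 0.52 ± 0.16 (0.0424) and 0.46 ± 0.14 (0.0382). The kinase Irak1 rose over the dose order (limma adjusted p = 0.0237). The receptor Tlr4 (-0.24, limma adjusted p = 0.324, above the 20th percentile of all probe sets on 13 of 21 arrays), its partner Ly96 (0.05, 0.821) and the lipopolysaccharide carrier Lbp (-0.09 ± 0.37, 0.909) did not pass.

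Around Cd163, 2 of 8 genes of haemoglobin clearance and haem breakdown rose (6.18% of all genes) and 1 fell (4.07%) at 978.5 mg/kg. Blvrb, a biliverdin reductase, rose by 0.71 ± 0.11 (limma adjusted p = 0.000314) and Slc48a1, a haem transporter, by 0.37 ± 0.09 (0.0114). Lrp1, which takes up the haemopexin complex, fell by 0.39 ± 0.12 (limma adjusted p = 0.0423), with a second probe set at -0.05. Haptoglobin (Hp, 0.04, limma adjusted p = 0.721) and haem oxygenase (Hmox1, 0.14 ± 0.26, 0.786) did not pass. Of 13 lysosome genes 1 rose, near the 6.18% of all genes, and 0 fell. The 1 was the protease Ctsd (0.53 ± 0.12, limma adjusted p = 0.00728). Of 9 other scavenger receptors 0 passed by limma at 978.5 mg/kg, and 1 was lower at an unadjusted p under 0.05, near the 12.3% of all genes.

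Inflammatory cytokines and chemokines had 1 of 18 lower, near the 4.07% of all genes, and 0 higher at 978.5 mg/kg. Ccl5, a chemokine, fell by 0.94 ± 0.24 (limma adjusted p = 0.0169). Of 12 monocyte and neutrophil genes 0 passed at 978.5 mg/kg by limma (2 lower and 1 higher at an unadjusted p under 0.05, near the 24.7% of all genes). Ccr2, the receptor that brings monocytes into tissue, passed over the dose order (0.27 ± 0.08, limma adjusted p = 0.0384), but its values of 3.92 to 4.58 lay below the 20th percentile of all probe sets on all 21 arrays (4.71 to 4.83), where a signal cannot be told from background. All 8 class II antigen presentation genes lay below 0 (median -0.70), with 1 lower (4.07% of all genes), RT1-Db1 (-0.82 ± 0.26, limma adjusted p = 0.0437).

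Markers of further cell types moved in the same livers, and their part in the macrophage values was not tested. At 978.5 mg/kg 4 of 8 red blood cell genes fell (4.07% of all genes), Hbb by 1.36 and Alas2 by 1.48 (limma adjusted p = 0.00809) among them. Another of the 4, Hemgn (-0.29 ± 0.09, limma adjusted p = 0.0402), lay above the 20th percentile of all probe sets on 1 of 21 arrays. Of 14 stellate cell and fibroblast genes 2 fell (4.07% of all genes), Pdgfrb (-0.74 ± 0.16, limma adjusted p = 0.00518) and Reln (-0.44, 0.0398), each with a further probe set nearer to 0 (-0.05 and -0.04). Of 12 sinusoidal endothelial genes 1 fell (4.07% of all genes), Egfl7 (-0.23 ± 0.06, limma adjusted p = 0.0157). The mean of the endothelial genes, each set to its vehicle mean, was lowest in replicate 1 of all 6 groups, from -0.56 to -0.36. So was the mean of the other scavenger receptors, from -0.48 to -0.28, a list that shares Stab1 and Stab2 with the endothelial genes. Of 14 T, B and natural killer cell genes 0 passed by limma (5 lower and 0 higher at an unadjusted p under 0.05), with 14 below 0. Of 15 hepatocyte genes 0 passed by limma (4 lower and 0 higher at an unadjusted p under 0.05), with a median of -0.06. Over all genes these unadjusted shares were 12.3% lower and 12.4% higher. The mean of the macrophage list of 20 ran from -0.22 to 0.18 in vehicle livers and from -0.50 to -0.21 at 978.5 mg/kg, and that of the hepatocyte list from -0.05 to 0.06 and from -0.20 to 0.00.

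**Figure D4:**
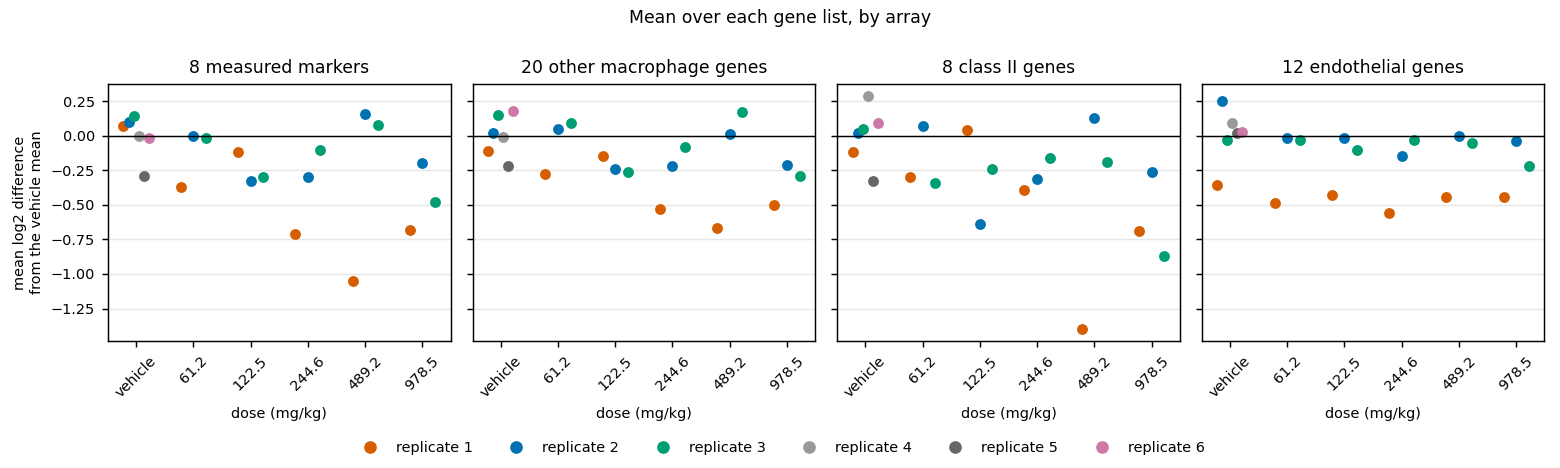
Mean log2 signal of gene lists on each array, set to the vehicle mean, by dose in mg/kg and coloured by replicate number. The mean of the 8 macrophage genes is lowest at 489.2 mg/kg replicate 1 (-1.05), and the endothelial mean is lowest in replicate 1 of each group.

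**Figure D5:**
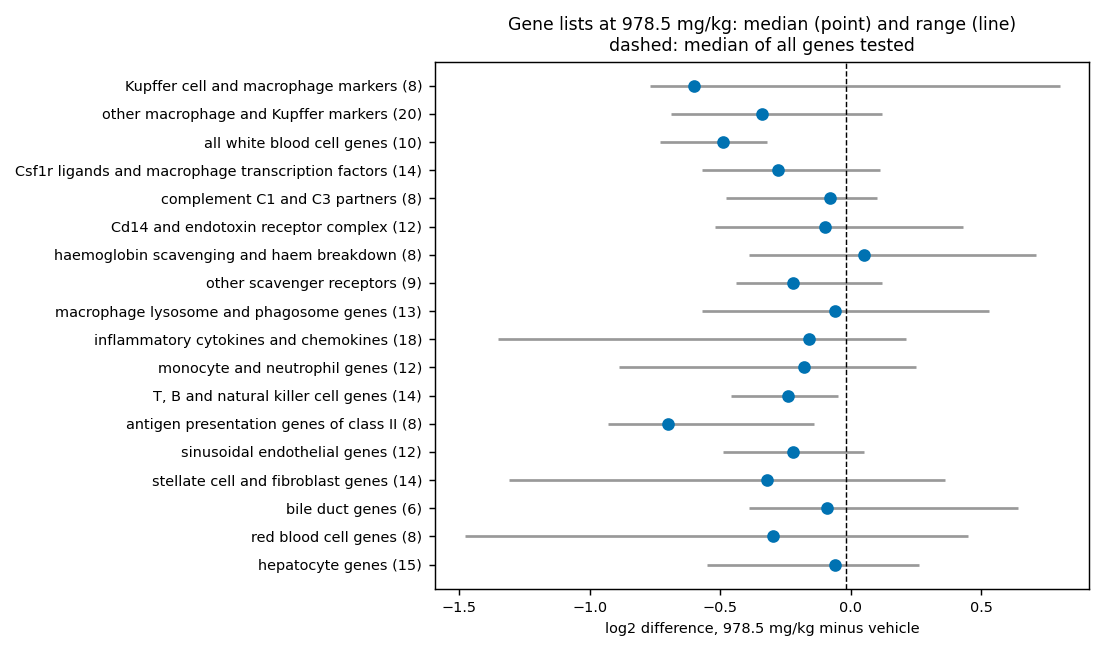
Log2 difference of 978.5 mg/kg from vehicle for each gene list, with a point at the list's median, a line over the range of its measured genes and a dashed line at the median of all genes tested. The median of the 8 macrophage genes is -0.60, that of class II genes -0.70 and that of hepatocyte genes -0.06.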

How the data were processed

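Liver RNA of 21 arrays was measured on 1-colour Affymetrix arrays, from 100 ng of total RNA per the labels' protocols. The deposited log2 signals were made by the authors with robust multi-array averaging (RMA), per the submitters' processing notes, its version being not given in the sources used here. Of 31099 probe sets, 20832 carried 1 gene symbol, 436 several and 9831 none in the platform table, and for each of 14218 genes the probe set of highest mean was kept. No further scaling was applied.

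Tests of differences and of the trend came from limma 3.58.1 (R 4.3.3), with Benjamini-Hochberg adjustment over all genes and a threshold of 0.05. Group comparisons fitted a mean for every group to the 21 arrays together (15 residual degrees of freedom). The trend instead fitted an intercept and a slope on dose rank from 0 to 5 over all arrays. Tables and plots used Python 3.11.15, pandas 2.3.3 and matplotlib 3.10.9, and the fit was tested on simulated data. The number of arrays, 3 per dose, limits the precision.

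The genes described and the 17 lists set beside them (201 of 234 entries matched) were chosen with earlier results of these data known. Named from each list were the genes called at 978.5 mg/kg or in the trend, at most 4 by smallest p, and a fixed set that includes Adgre1, Cd5l, Ptprc, Csf1, Il34, C1r, C1s, Hp, Hmox1, Tlr4, Ly96 and Lbp; not all are given. Likeness was ranked by Pearson's r with the mean of the 8 genes, the 10 highest over all arrays and the 5 highest with group means removed. Correlations carried 100000 permutations. Alternatives covered scaling, probe set choice, low values, variance model, array weights, the replicate number and each array left out.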

Additional observations from a re-analysis of the deposited data

Results flagged for a closer look

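Of 72 sets of 6 vehicle arrays examined, 6 held an array whose gap to its nearest neighbour exceeded Dixon's 95% critical ratio of 0.625, where chance gives about 5%. The mean of the 8 macrophage genes was lowest in vehicle replicate 5, at -0.29 from the vehicle mean, with the next array at -0.02. Laptm5, a lysosomal protein of blood cells, was also lowest in that array, at 8.65 against 8.84 for the next. Vehicle replicate 6 was highest for the mean of inflammatory cytokines and chemokines (0.63 against -0.03), for the mean of monocyte and neutrophil genes (0.55 against 0.01) and for Itgax (7.04 against 6.34). That array had the lowest mean correlation with the others (0.987) and the highest 3' minus 5' values of Gapdh (2.06) and actin (2.73). Hbb, a haemoglobin chain, was lowest in vehicle replicate 1, at 12.34 against 13.22. Groups of 3 arrays were too small for this rule, so replicate 1 at 489.2 mg/kg was not tested by it.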

How the results depend on the processing

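Counts moved with the arrays in the fit, the threshold and single arrays. Of the 8 macrophage genes, the count called at 978.5 mg/kg was 2 as reported, 7 with only the arrays compared in the fit, 7 at an unadjusted p under 0.05, and 1 to 7 on leaving out each array, where replicate 1 at 978.5 mg/kg gave 1 and replicate 1 at 489.2 mg/kg gave 7. The trend called 4 as reported, 1 among treated arrays alone, 8 unadjusted, and 3 to 7 on leaving out each array. All doses against vehicle called 1 as reported, 0 with low values floored, 0 with a 1.5-fold minimum, 5 unadjusted, and 0 to 2 on leaving out each array. At 122.5 mg/kg the count of 0 became 1 with array weights and 2 unadjusted. At 244.6 mg/kg it became 1 with array weights, 3 unadjusted, and 0 to 1 on leaving out each array. At 489.2 mg/kg it became 1 with genes above the median level alone, 3 unadjusted, and 0 to 1 on leaving out each array. The highest dose against the 4 lower called 1 unadjusted and 0 to 1 on leaving out each array. Of 2 settings chosen after seeing the data, leaving out the arrays numbered 1 gave 4 at 978.5 mg/kg and 1 in the trend, and leaving out vehicle replicate 5 with replicate 1 at 489.2 mg/kg gave 3 at 244.6 mg/kg, 7 at 978.5 mg/kg and 3 for all doses. The cause was not tested, beyond fewer arrays or genes in the fit. With a stated adjusted threshold, counts over all genes ran from 361 to 1764 at 978.5 mg/kg (1457 as reported), 332 to 1895 for the trend (1589), 75 to 514 at 489.2 mg/kg (412), 112 to 766 at 244.6 mg/kg (420), 4 to 357 at 122.5 mg/kg (16), 0 to 3 at 61.2 mg/kg (2), 92 to 830 for all doses (629) and 48 to 333 for the highest dose against the lower ones (258). The 1764 is a count of probe sets, not genes, from the setting that tested each of the 20832 with 1 symbol.

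Arrays of different groups were also correlated over all genes after each gene's group mean was taken out. Same-numbered arrays then had correlations of -0.23 to 0.37 (median 0.06), 17 of 45 over 0.1. Differently numbered arrays had a median of -0.02, with 28 of 135 over 0.1. The labels name nothing that same-numbered arrays share, so the main fit did not pair livers by number. Whether the numbers mark a shared factor was not tested, and a fit with the number as a block follows. With group means taken out in the same way, 10 of 18 arrays matched best an array of their own number in another group. The count that chance alone would give was not computed. With the replicate number as a block, the counts were 3 at 978.5 mg/kg, where Csf1r passed (-0.83, limma adjusted p = 0.0455), 5 in the trend, where C1qa passed (0.025), and 0 for all doses, where Cd163 did not (-0.66, 0.0546). Over 64 gene differences and 2112 alternative values, 29 changed sign, in 11 differences at 61.2, 244.6 or 489.2 mg/kg that had not passed, and 0 called differences reversed.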

Other observations

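Ranked on Cd14 alone, a choice made after its values were seen, the genes most like it over the 21 arrays were Syt15 (Pearson's r = 0.79), Ak3 (0.78), Klf15 (0.77), Timm10b (0.76) and Amdhd2 (0.75), given as a description with no test. The 3 probe sets of Klf15 differed in sign at 978.5 mg/kg, from -0.10 to 0.85. None of the 10 genes most like the mean of the macrophage genes was among the 10 most like Cd14. That was largely set beforehand, since Cd14 had r of -0.47 to -0.25 with the other 7 genes. Of 6 bile duct genes measured, 1 rose at 978.5 mg/kg by limma (6.18% of all genes) and 0 fell (4.07%). The list had 5 genes below 0 and a median of -0.09. The 1 that rose was Epcam, a surface protein of bile duct cells (0.64 ± 0.13 on the log2 scale, limma adjusted p = 0.00324). Cd8a and Cd79b, markers of T and B cells, fell over the dose order by 0.42 ± 0.11 (limma adjusted p = 0.01) and 0.30 ± 0.09 (0.0279) over its 5 steps.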
